A study of Homo sapiens with 4 samples.

Results

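The SOX genes encode transcription factors with a shared DNA-binding domain, the HMG box, and are sorted into groups by the similarity of that domain. GATA3 binding was examined around 10 of them: SOX3 and SOX21 (group B), SOX4 and SOX11 (group C), SOX8, SOX9 and SOX10 (group E), and SOX7, SOX17 and SOX18 (group F). They are 10 of 20033 protein-coding genes. Groups B and C have further genes that were not chosen, and no gene of group D was chosen. For each gene, every GATA3 position within 100 kb of the 5′ end of the gene or inside the gene was taken, as was every position to which the authors had given the symbol of the gene. This gave 16 of 18456 positions in replicate 1 and 9 of 12782 in replicate 2, and 7 of the 9145 shared regions. A shared region is a place where positions of the replicates lay within 100 bp of each other. The symbols added no position that the distance had not already found, for any of the 10 genes.

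The cells were H1, an established line of human embryonic stem cells, kept in mTeSR1 medium and given 50 ng/ml BMP4 for 6 h. DNA pulled down with a GATA3 antibody was sequenced (ChIP-seq) in 2 replicates, and 2 input chromatin samples from cells given the same treatment served the authors as controls for peak calling. GATA3 positions of untreated cells were not analysed here, so the values describe treated cells alone. The peak lists give 1 position per peak, in some lines between neighbouring bases, and no height, so strong and weak peaks cannot be told apart. The files do not hold the depth of each library.

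BMP4 is a signal that moves embryonic stem cells out of pluripotency, and GATA3 is a zinc finger transcription factor that rises after the signal and binds the word GATA with preferred flanks. SOX factors bend DNA and often act in pairs with other factors to hold or change cell identity. Group B factors are known from neural progenitors, group C factors from neurons and many growing tissues, group E factors from cartilage, testis and neural crest, and group F factors from endoderm, heart and blood vessels.

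A shared region was found for 6 of the 10 genes: SOX21, SOX4, SOX11, SOX9, SOX10 and SOX7. By the same rule 47.7% of all protein-coding genes had at least 1, so the share among the SOX genes was near the background. No test was made on so short a list. SOX3, SOX8, SOX17 and SOX18 had none. Of these, SOX3, SOX8 and SOX18 had no position of either replicate, as did 27.4% of protein-coding genes. Of the 7 regions, 0 were within 1 kb of the 5′ end of the SOX gene or of any other protein-coding gene. Of all 9145 shared regions 4.72% were within 1 kb of a protein-coding start, so a count of 0 in 7 is near the background.

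The reference sequences of the shared regions show which GATA sites were present at each place and where they lay. Each line gives the 200 bases around the centre of a region on the plus strand of hg38, with the sites AGATAA or AGATAG or TGATAA or TGATAG, read on either strand, in capitals. The lines cover 6 of the 7 regions and set the 5 with a site beside the 1 without.
SOX21, near region, chr13:94707889-94708088: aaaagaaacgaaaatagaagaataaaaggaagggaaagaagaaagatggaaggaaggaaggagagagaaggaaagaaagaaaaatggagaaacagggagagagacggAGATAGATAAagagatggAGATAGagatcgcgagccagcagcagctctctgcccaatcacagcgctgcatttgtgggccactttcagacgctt
SOX21, far region, chr13:94665008-94665207: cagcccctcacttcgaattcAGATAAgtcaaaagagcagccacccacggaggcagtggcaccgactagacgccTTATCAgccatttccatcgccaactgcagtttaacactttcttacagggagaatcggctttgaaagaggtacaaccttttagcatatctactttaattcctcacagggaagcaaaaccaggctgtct
SOX4, region, chr6:21599470-21599669: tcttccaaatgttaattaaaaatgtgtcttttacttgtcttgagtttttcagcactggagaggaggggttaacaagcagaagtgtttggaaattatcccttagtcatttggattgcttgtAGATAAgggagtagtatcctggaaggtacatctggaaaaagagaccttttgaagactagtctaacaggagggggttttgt
SOX11, region, chr2:5660717-5660916: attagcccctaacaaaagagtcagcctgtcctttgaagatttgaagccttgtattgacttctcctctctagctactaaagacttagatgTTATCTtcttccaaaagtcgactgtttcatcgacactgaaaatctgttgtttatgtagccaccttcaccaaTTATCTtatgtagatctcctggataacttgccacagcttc
SOX9, region, chr17:72106038-72106237: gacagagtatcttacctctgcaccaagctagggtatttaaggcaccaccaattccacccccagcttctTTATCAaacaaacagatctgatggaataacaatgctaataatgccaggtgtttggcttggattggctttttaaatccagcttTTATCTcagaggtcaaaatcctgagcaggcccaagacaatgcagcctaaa
SOX10, region, chr22:37887580-37887779: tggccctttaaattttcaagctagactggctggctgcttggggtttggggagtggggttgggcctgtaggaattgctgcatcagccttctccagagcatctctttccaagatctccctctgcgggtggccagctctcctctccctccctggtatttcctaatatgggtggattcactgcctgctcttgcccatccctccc

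At least 1 GATA site was in 6 of the 7 regions (85.7%, 95% Wilson interval 48.7 to 97.4), and in 82.0% of all 9145 shared regions. The interval of the SOX regions holds the share of all regions. The stricter site AGATAA was in 5 of the 7 (71.4%, 95% Wilson interval 35.9 to 91.8). It was in 51.6% of all shared regions, a share that this interval also holds. In the sequences, the near SOX21 region held 3 sites, of which the neighbours AGATAG and AGATAA share bases, inside a stretch rich in A and G. The far SOX21 region, the SOX11 region and the SOX9 region held 2 sites each, and the regions of SOX4 and SOX7 held 1 each. The SOX10 region held none. Where a site was present, the nearest one lay 8.5 bp from the region centre at SOX11, 9.5 bp at the near SOX21 region, 17.5 bp at SOX7, 22.5 bp at SOX4, 24.5 bp at the far SOX21 region and 29.5 bp at SOX9. Distances are to the middle of the site.

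**Figure D1:**
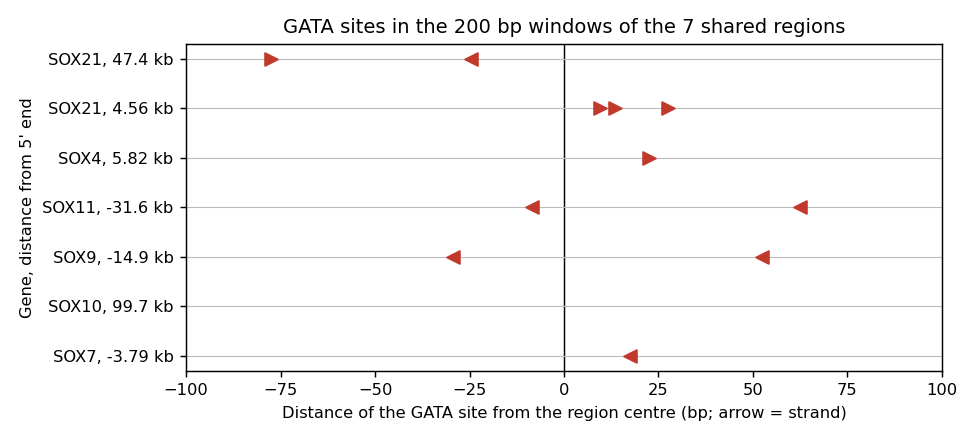
GATA sites in the 200 bp windows of the 7 shared regions. The x axis is the distance of a site from the region centre in bp, each row is a region named by its gene and its distance from the 5′ end, and arrows point along the strand of the site. The row of SOX10 is empty, and the nearest site of every other row is within 30 bp of the centre.

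Other motifs were counted in the same windows on both strands. The SOX sites ACAATGG or ACAAAGG were in 0 of the 7 regions, which allows a share of up to 35.4% (95% Wilson interval), and in 13.3% of all shared regions. The POU octamer ATGCAAAT was in 0 of 7 and in 5.07% of all shared regions. The short SMAD element GTCTG was in 2 of 7, the near SOX21 region and the SOX7 region, against 36.2% of all. For each of these motifs the Wilson interval of the SOX regions held the share of all shared regions. The median GC content of the windows was 44.5% at the SOX genes and 44% over all shared regions.

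Group B holds SOX3, an activator of the neural progenitor state and a close relative of SOX2, and SOX21, which is known to act against such activators. The 2 genes differed. SOX21 (ENSG00000125285.6, chr13:94709622-94712545, minus strand) had 4 positions in replicate 1, a count that SOX9 also reached, and 3 in replicate 2, the highest count there. They formed 2 shared regions, and 17.3% of protein-coding genes have at least 2. The near one (94707972 in replicate 1 and 94708006 in replicate 2, 34 bp apart) lay 4.56 kb downstream of the 5′ end and 1.63 kb past the 3′ end, in intron 1 of the long noncoding RNA SOX21-AS1 and of LINC00391. The far one (94665100 and 94665116, 16 bp apart) was 47.4 kb downstream in intergenic sequence. A further pair, 94709447.5 in replicate 1 and 94709579 in replicate 2, sat 3.10 kb and 2.97 kb downstream, just past the 3′ end of SOX21. Its members were 131.5 bp apart and so counted as unshared, although each window held 1 GATA site. Replicate 1 also had 94662419 without a partner in replicate 2 within 2.70 kb.

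SOX3 (ENSG00000134595.9, chrX:140502985-140505069, minus strand) had 0 positions in both replicates within 100 kb. Its nearest shared region was 168 kb upstream (140673354 and 140673358, 4 bp apart), in intergenic sequence with 4 GATA sites in its window, and no protein-coding start was nearer to that region than the start of SOX3. SOX3 and SOX21 thus both lie in stretches with 0 other protein-coding starts within 100 kb, and differed by 2 shared regions.

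**Figure D2:**
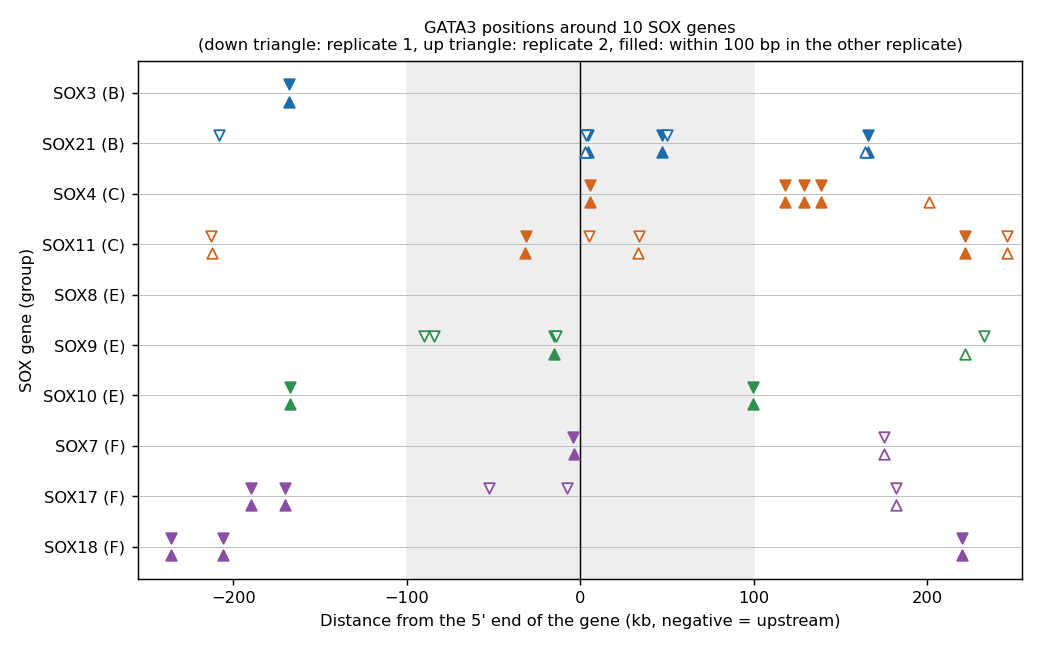
GATA3 positions around the 10 SOX genes. The x axis is the distance from the 5′ end in kb, each row is a gene with its group, down triangles are positions of replicate 1 and up triangles of replicate 2, filled ones lie within 100 bp of a position of the other replicate, and the grey band is the 100 kb window. SOX17 has only open triangles of replicate 1 in the band, and the band is empty for SOX3, SOX8 and SOX18.

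Group C holds SOX4 and SOX11, which are both known for roles in neurons and in the growth of embryonic tissues. SOX4 (ENSG00000124766.7, chr6:21593751-21598619, plus strand) had 1 position in each replicate, 21599571 and 21599570. They were 1 bp apart, the closest match among the 7 regions, and lay 5.82 kb downstream of the 5′ end, 0.952 kb past the 3′ end of the gene. Just outside the 100 kb window came 3 more shared regions, 118, 129 and 139 kb downstream, with the replicates 16, 4 and 10 bp apart. All 3 were in intron 2 of CASC15, a long noncoding RNA gene that neighbours SOX4, and held 1, 2 and 3 GATA sites. The nearest protein-coding start to each of them was that of SOX4.

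SOX11 (ENSG00000176887.7, chr2:5692384-5701385, plus strand) had 3 positions in replicate 1 and 2 in replicate 2. The 1 shared region (5660837 and 5660797, 40 bp apart) was 31.6 kb upstream, in introns of noncoding genes, LINC01248 among them. Position 5697324 of replicate 1 was inside SOX11 itself, in the untranslated part of its exon 1, 4.94 kb from the 5′ end. It had no partner in replicate 2 within 28.6 kb and 0 GATA sites in its window. Positions 33.9 kb (replicate 1) and 33.5 kb (replicate 2) downstream were 348 bp apart, counted as unshared, and also had 0 GATA sites.

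Group E holds SOX9, which directs cartilage and testis formation, SOX10, which is needed in neural crest and glia, and SOX8, which overlaps with both in function. SOX9 (ENSG00000125398.8, chr17:72121020-72126416, plus strand) had 4 positions in replicate 1 and 1 in replicate 2. The shared region (72106152 and 72106124, 28 bp apart) was 14.9 kb upstream, in intron 1 of SOX9-AS1, and carried the symbol SOX9 in both lists. The other 3 positions of replicate 1 had no partner within 100 bp. One of them, 72107180, was 13.8 kb upstream, 1056 bp from the position of replicate 2, with 1 GATA site. The others, 84.2 and 90.2 kb upstream inside the noncoding gene ROCR, were 69.3 and 75.3 kb from any position of replicate 2, with 2 and 0 GATA sites.

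SOX10 (ENSG00000100146.20, chr22:37970686-37987422, minus strand) had 1 position in each replicate, 37887659 and 37887702, 43 bp apart. This region was 99.7 kb downstream of the 5′ end, at the edge of the window, in intron 12 of EIF3L, a gene for a subunit of translation initiation factor 3. The starts of 8 other protein-coding genes were nearer to it than that of SOX10, and MICALL1, which acts in endosome recycling, was the nearest at 18.0 kb. It was the only 1 of the 7 regions whose nearest protein-coding start was not the SOX gene and the only 1 without a GATA site. SOX8 (ENSG00000005513.10, chr16:981770-986979, plus strand) had 0 positions in both replicates, and its nearest shared region was 315 kb away, the farthest of the 10 genes.

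Group F holds SOX17, a marker of definitive endoderm that the study also stained for, SOX7, known from primitive endoderm and early blood and vessel cells, and SOX18, known from blood and lymph vessels. SOX7 (ENSG00000171056.8, chr8:10723768-10730511, minus strand) had 1 position in each replicate, 10734346 and 10734266. They were 80 bp apart, the widest gap among the 7 regions, and lay 3.79 kb upstream in intron 5 of the neighbouring gene PINX1, nearer to the start of SOX7 than to any other protein-coding start. Both lists named it SOX7. The near SOX21 region also carried the symbol of its SOX gene in both lists. The regions of SOX4, SOX11 and SOX10 and the far SOX21 region carried names of other genes in both lists.

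SOX17 (ENSG00000164736.6, chr8:54457935-54460892, plus strand) had 2 positions in replicate 1, 7.78 kb and 52.3 kb upstream, and 0 in replicate 2. Each held 1 GATA site, but the nearest position of replicate 2 was 162 kb and 117 kb from them, so no match was near. It was the 1 gene of the 10 with positions in replicate 1 only, as 15.2% of protein-coding genes are. The nearest shared region was 170 kb upstream. SOX18 (ENSG00000203883.7, chr20:64047582-64049639, minus strand) had 0 positions in both replicates, and its nearest shared region was 206 kb away. Within 100 kb of its own start lie 11 other protein-coding starts, the most of the 10 genes.

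**Figure D3:**
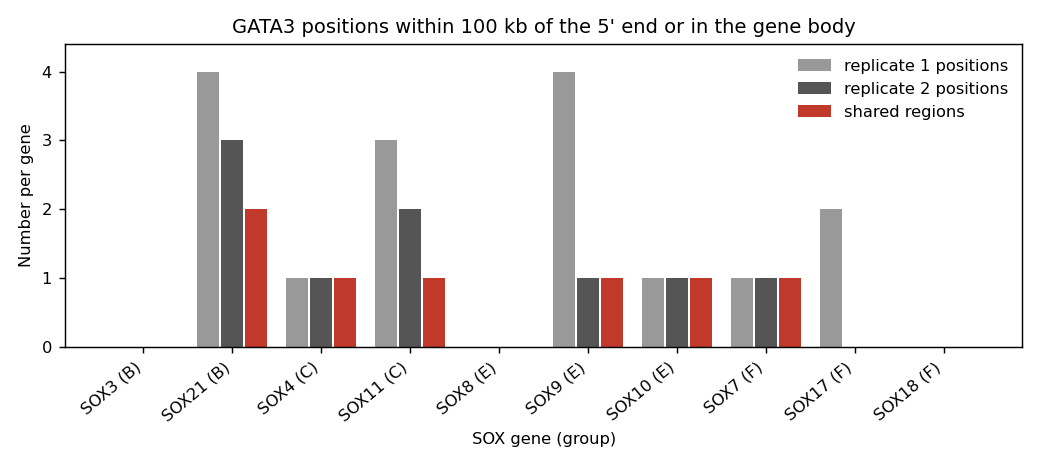
Number of GATA3 positions and shared regions for each SOX gene. The y axis is the count within 100 kb of the 5′ end or in the gene, light grey bars are replicate 1, dark grey bars replicate 2 and red bars shared regions. Replicate 1 has more positions than replicate 2 at SOX21, SOX11, SOX9 and SOX17 and the same number at the other 6 genes.

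The groups were set side by side as counts. Group B had 2 shared regions, both at SOX21, group C had 2, 1 at each gene, group E had 2, at SOX9 and SOX10, and group F had 1, at SOX7. The windows of the genes held 5 shared regions per Mb in groups B and C, 3.33 in group E and 1.67 in group F. Over the 10 genes the value was 3.50 per Mb, against 2.96 per Mb of all chromosomes. Counts of 1 or 2 regions over 2 or 3 genes do not separate the groups, and group C was the only one in which no gene lacked a region. The SOX10 region was at the edge of the window, and within 50 kb group E had 1 region. With other windows 4 of the 10 genes had a shared region by the rule at 10 kb, 5 at 50 kb and 9 at 250 kb, where 21.5%, 33.0% and 75.8% of protein-coding genes had one. The 4 at 10 kb were SOX7, SOX21 and SOX4 by distance and SOX9, at 14.9 kb, only through the authors' symbol. SOX8 was the gene that had none within 250 kb.

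The lists of the replicates contributed unequally. At least 1 position was found for 7 of the 10 genes in replicate 1 and for 6 in replicate 2, where 68.7% and 57.4% of protein-coding genes had at least 1. Of the 16 positions of replicate 1, 7 were shared (43.8%, 95% Wilson interval 23.1 to 66.8), and of the 9 of replicate 2, 7 (77.8%, interval 45.3 to 93.7). Over all positions the shares were 49.6% and 71.5%, inside those intervals, which cover counting error only. The gap between matched positions had a median of 34 bp at the SOX genes and 23 bp over all shared regions. Among unshared positions at the SOX genes, 6 of 9 in replicate 1 and 1 of 2 in replicate 2 held a GATA site. The share over all unshared positions was not counted, so these counts cannot be read as high or low.

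The distance to the nearest shared region orders the 10 genes without a window. SOX7 was nearest at 3.79 kb, followed by SOX21 at 4.56 kb, SOX4 at 5.82 kb, SOX9 at 14.9 kb, SOX11 at 31.6 kb, SOX10 at 99.7 kb, SOX3 at 168 kb, SOX17 at 170 kb, SOX18 at 206 kb and SOX8 at 315 kb. Of all protein-coding genes, 5.01% were as near or nearer than SOX7, 5.54% than SOX21, 6.41% than SOX4, 11.1% than SOX9 and 82.1% than SOX8. The median was 65.7 kb over the SOX genes and 118 kb over all protein-coding genes. The SOX median fell in the wide gap between SOX11 and SOX10, and 6 of the 10 genes were nearer than the median protein-coding gene. The difference was not tested. SOX7, SOX21 and SOX4 come from 3 different groups and were close together in this order, and SOX3 and SOX17 were at nearly the same distance. The order depended on the sharing distance of 100 bp. With sharing within 50 bp the nearest region of SOX7 was 286 kb away. With sharing within 250 or 500 bp that of SOX21 was 3.03 kb away, nearer than that of SOX7.

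**Figure D4:**
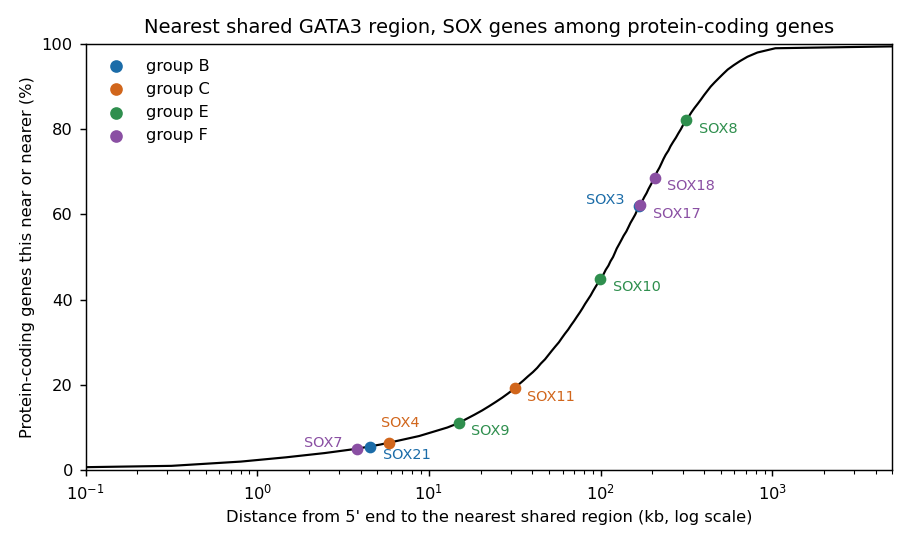
Distance from the 5′ end to the nearest shared GATA3 region. The x axis is that distance in kb on a log scale, the y axis the percentage of protein-coding genes with a region as near or nearer, the line is all 20033 genes and the points are the 10 SOX genes coloured by group. SOX7, SOX21 and SOX4 lie at the lower end, between 5.01% and 6.41%, and SOX8 at 82.1%.

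Several of these genes stand alone in long stretches without other protein-coding starts, so that regions nearest to them can lie outside a window of 100 kb. A further count, chosen after seeing the data, therefore took every shared region whose nearest protein-coding start was one of the SOX genes, at any distance. It gave 18 regions at 6 of the 10 genes, where 25.2% of protein-coding genes are the nearest start of at least 1 region. SOX4 had 6, SOX11 had 5, SOX9 had 3, SOX21 had 2, and SOX3 and SOX7 had 1 each. SOX8, SOX10, SOX17 and SOX18 had 0. The 2 chosen genes of group C thus held 11 of the 18. This split depends on which genes were chosen. Of the genes not chosen, SOX12 of group C had 0, while in group B SOX2 had 12 and SOX1 and SOX14 had 2 each. A count of at least 6 is found for 0.789% of protein-coding genes and a count of at least 5 for 1.44%, but the stretch nearest to a gene was 0.884 Mb for SOX4, 1.58 Mb for SOX11 and 1.46 Mb for SOX9. Per Mb of that stretch SOX4 had 6.79 regions, SOX11 3.16 and SOX9 2.05, against 2.96 over all chromosomes. SOX7 had 15.7, from 1 region in 0.0638 Mb, SOX21 had 5.72, from 2 regions in 0.350 Mb, and SOX3 had 2.20, from 1 region. The value of SOX11 was close to that over all chromosomes and that of SOX9 was below it.

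The regions of this count were spread on both sides of SOX4 and SOX11. At SOX4, besides the CASC15 introns, 2 regions lay 309 kb and 352 kb upstream. At SOX11 the others were 501 and 614 kb upstream and 222 and 531 kb downstream. At SOX9 the others were 598 and 834 kb upstream, and none was downstream. A GATA site was in 14 of the 18 windows and in 8 of the 12 beyond the 100 kb window, against 82.0% of all shared regions. The positions of the replicates for the farthest SOX9 region were the same base, 71286801.

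**Figure D5:**
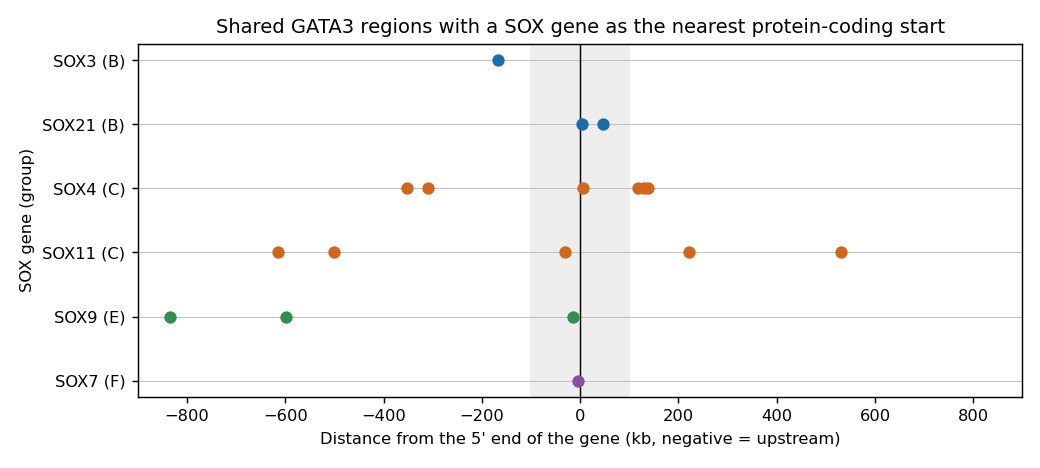
Shared GATA3 regions with a SOX gene as the nearest protein-coding start. The x axis is the distance from the 5′ end of the gene in kb, each row is a gene with its group, each point is a shared region and the grey band is the 100 kb window. SOX4 and SOX11 have points on both sides and SOX9 only upstream and out to 834 kb.

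The other SOX genes listed give the context of the family. By the same rule 8 of 9 had a shared region, where 47.7% of all protein-coding genes had one. They were SOX2 and SOX14 of group B, SOX12 of group C, SOX5, SOX6 and SOX13 of group D, SOX15 of group G and SOX30 of group H. SOX6 counted only through its gene body, with its nearest region 129 kb from the 5′ end. The SOX30 region was at the edge of the window, at 99.7 kb. SOX1 had none, and its nearest region was 131 kb upstream. SOX2, which maintains pluripotency, had 8 positions in replicate 1 and 5 in replicate 2, forming 4 shared regions, and was the nearest start of 12, more than any of the 10 genes. The group D genes had 12 regions, 7 at SOX5, but these genes are long. SOX5 spans 1030 kb and 2 of its 7 regions were within 100 kb of its 5′ end, 0.447 and 1.28 kb upstream. That end, 24562544, is the outermost one of the gene. The canonical transcript of SOX5 starts inside it, at 23949670, so these 2 regions are not at the canonical start. By outermost 5′ ends, another gene had the nearest start for the regions of SOX12, SOX15 and SOX30. So it was for all 3 regions of SOX6, 1 of the 2 of SOX13 and 1 of the 7 of SOX5. The canonical transcript of SOX6 also starts inside its outermost end, at 16356546. From canonical starts, the SOX6 regions 613 and 747 kb from that end and this SOX5 region are nearer to their own gene than to the other one.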

How the data were processed

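GATA3 ChIP-seq and input chromatin of H1 cells given BMP4 were deposited as 2 ChIP and 2 input samples, and the peak lists of the ChIP samples were analysed. Per the methods of the study, the authors used cutadapt for trimming, bowtie for alignment to hg38, Picard for duplicates and MACS2 for peaks of each ChIP over its input. Multiply mapped reads and blacklisted regions were left out. Each deposited line holds 1 position and a gene name. The lists are longer in replicate 1 and shorter in replicate 2 than the peak numbers given in the methods, for a reason not stated. Whether it is a summit, and whether bases count from 0 or 1, was not stated, and positions are printed as deposited.

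Repeated positions were counted once and unplaced scaffolds left out. Genes, and the introns of canonical transcripts, came from GENCODE release 44. The start or 5′ end of a gene was the outermost 5′ end of its record. Starts of canonical transcripts were used only as an alternative, which put the SOX10 region at 96.9 kb. Shares carry 95% Wilson intervals. Counts were read beside the same count over all protein-coding genes, with no test, since 1 condition holds no second group. All 10 genes are named, with other SOX genes as context, and another gene only where it holds a region or has the nearer start. The genes, motifs and lists were chosen with earlier results of these data known. Linking and counting were tested on simulated data. Python 3.11.15, numpy 2.4.6, pandas 2.3.3, statsmodels 0.14.6 and pysam 0.24.0 were used. Alternatives for the window, sharing distance, gene start, assignment, motif window and replicates were run.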

Additional observations from a re-analysis of the deposited data

How the results depend on the processing

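No paired analysis was possible because peak lists were used for 1 group alone, with no test between groups. No result had a test, so values could move but no call could be lost. Between 4 (10 kb) and 9 (250 kb) genes had a shared region, against 6, and SOX9 stayed at 10 kb only through the authors' symbol. Within 10 kb groups B, C and E had 1 region each. Within 50 kb group E had 1, as with the nearest start only, which drops the SOX10 region. Within 250 kb group B had 4, group C 6 and group F 6, and with the nearest start at any distance, chosen after seeing the data, group C had 11. Sharing within 50 bp left group F with 0, since the SOX7 positions were 80 bp apart. Sharing within 500 bp made 100.0% of the 9 positions of replicate 2 shared.

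Using 1 replicate at a time, group B had 3 to 4 positions, group C 3 to 4, group E 2 to 5 and group F 1 to 3, the higher value each time being without replicate 2. The share of protein-coding genes with a region ran from 57.4% to 68.7% in the same way. It was 21.5% at 10 kb, 33.0% at 50 kb and 75.8% at 250 kb, and 41.6%, 50.4% and 50.9% for sharing within 50, 250 and 500 bp. The share of SOX regions with a GATA site was 71.4% for AGATAA alone and 85.7% in windows of 100 and 400 bp. The lists hold no peak height, so neither depth nor strength could be weighed.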

Other observations

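Within 250 kb of SOX17, SOX18 and SOX10 the shared regions lay closer to the starts of other genes, and these values were looked up after the positions had been seen. A region 206 kb upstream of SOX18 (64255148 in replicate 1 and 64255162 in replicate 2) was 0.540 kb from the start of PCMTD2, with 2 GATA sites, and another 220 kb downstream was 2.02 kb from the start of ZBTB46, a zinc finger factor gene, with 0 GATA sites. A further region, 236 kb upstream of SOX18, was 30.4 kb from the start of PCMTD2, with 0 GATA sites. Upstream of SOX17, regions at 170 kb and 190 kb had MRPL15, a mitochondrial ribosomal protein gene, as the nearest protein-coding start, and each held 1 GATA site. Upstream of SOX10, a region at 167 kb was in intron 2 of the phospholipase gene PLA2G6, with 0 GATA sites. Its nearest protein-coding start was that of BAIAP2L2, at 43.5 kb.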
